A study of Mus musculus with 4 samples.

Results

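The genes described here were 10 members of the insulin-like growth factor (IGF) axis: the growth factor Igf1, its plasma partner Igfals, the binding proteins Igfbp1, Igfbp2, Igfbp3, Igfbp4, Igfbp5 and Igfbp6, the growth hormone receptor Ghr and the feedback inhibitor Socs2. The group was chosen by pathway with the spleen and liver diet ratio of Igfbp1 already known, so that ratio is described and not tested. The members were found by gene name or by RefSeq accession on a mouse expression array and came to 20 probes on 29 spots, out of 41174 probes for 27670 genes. The nucleoprotein pools came from male C57BL/6J mice, given as 7 weeks old, that ate a purified diet with 1.2% of the nucleoprotein product S-nuclegen for 4 weeks, which brought nucleic acids to 0.5%. The control pools came from mice on the purified diet alone, which held 0.03% nucleic acids, although the housing notes name a standard chow. All mice of both diets then received 10 mg/kg lipopolysaccharide (LPS), a bacterial wall component that causes systemic inflammation, and liver and spleen were taken 6 h later. No mice without LPS were analysed here. How many mice made up a pool is not given in the sources used here.

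Each organ was measured on 2 arrays with 2 colours, on which the RNA pools of both diets were hybridised together, with the nucleoprotein pool in Cy5 (red) on replicate 1 and in Cy3 (green) on replicate 2. The labels number pooled samples but do not say whether these were separate pools, so the arrays were counted as a dye swap of 1 pool per diet and organ. The SD of 2 arrays then covers labelling and array error, not variation between mice, and no test of diet was possible. A diet ratio is the log2 of nucleoprotein over control intensity, so that a positive value means a brighter signal in the nucleoprotein pool. A gene counted as measurable in an organ if at least 1 diet's channel was well above background at its probe on both arrays. It was called higher or lower where the ratio passed 1.5-fold (0.58 log2 units) in the same direction on both arrays. The median SD of the 2 arrays was 0.13 in liver and 0.10 in spleen over measurable genes, and 74 liver genes and 4 spleen genes passed the bound in opposite directions, all with Cy5 brighter. By summed level, hepatocyte markers were brighter on the liver arrays and lymphocyte markers on the spleen arrays, as the organ labels say. Of 14 measurable pancreatic acinar and islet markers, 11 were called lower in liver and 10 in spleen, with a list median of -3.95 in liver and -1.08 in spleen. All called genes were acinar, and the 3 islet genes measurable in each organ lay between -0.04 and 0.03. Stromal and endothelial, macrophage and lymphocyte markers had 0 genes called in either organ, with spleen medians of -0.10, -0.02 and -0.12 in that order. Over all measurable genes 0.329% were called in liver and 0.441% in spleen.

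IGF1 is the growth factor that liver releases under growth hormone, which signals through its own receptor, JAK2 and STAT5. It circulates bound to binding proteins that hold it in plasma or keep it from its receptor. In the blood most of it is carried in a complex of a binding protein with the acid-labile subunit, while IGFBP1 is a short-lived, liver-made inhibitor whose transcription insulin represses and fasting, glucocorticoids and inflammation raise. Endotoxin is known to lower hepatic IGF1 and to blunt growth hormone signalling.

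The opening bases of 4 of the probes are shown to identify what was measured, each 30 of 60 bases, read 5′ to 3′ from the deposited annotation, with positions on mouse build mm7 (NCBI 35). They belong to Igfbp1, whose spleen ratio was the largest of the group, and to the growth factor, another binding protein and the receptor, which were also brighter in liver. The Igfbp1 probe lies at chr11:7154447-7154506 (+), the Igf1 probe at chr10:87471884-87471943 (+), the Igfbp2 probe at chr1:73093964-73094023 (+) and the Ghr probe at chr15:3143965-3144024 (-). No annotation of that build was used here, so exon and UTR are not given.
Igfbp1: aaagttccgatgctgattgtgtaaccaaag
Igf1: tggatgagtgttgcttccggagctgtgatc
Igfbp2: catctcttctacaacgagcagcaggagact
Ghr: atctctttcatgcaggagagacagtgaaaa
The binding proteins are a family of related sequence, yet the longest run of bases shared by the Igfbp1 probe and a probe of another member was 8 bases (19 pairs). Over all 173 pairs of probes of different members it was 10 bases.

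In spleen Igfbp1 was brighter with nucleoprotein and the other 9 genes lay near 0, and in liver no member was called. The Igfbp1 diet ratio was 1.95 and 2.08 on spleen replicates 1 and 2, a mean of 2.02 ± 0.09 (SD of 2 arrays), or 4.05-fold. Its spleen level, the log2 channel intensity, was 8.92 and 8.67 in the nucleoprotein pool, against 6.96 and 6.58 in the control pool. The 4 channels did not overlap by diet, and the probe was well above background in all of them, so both pools were measured. The offset of 50 added to both channels pulls ratios of dim spots towards 0. Among 18150 measurable spleen genes this ratio ranked 3 from the highest, a description only, since Igfbp1 was singled out with it known. Feature Extraction's own ratio, which has no offset added, was larger, 2.78 ± 0.06 for the same spots.

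In liver the Igfbp1 ratio was 0.76 on replicate 1 and 0.04 on replicate 2, a mean of 0.40 ± 0.50. The liver level was 15.72 and 15.55 in the nucleoprotein pool, against 14.96 and 15.50 in the control pool. The arrays thus did not give the same answer: replicate 1 alone passed the bound and replicate 2 alone was close to 0. The mean was smaller than its SD. Both points depended on the processing, since Feature Extraction's ratio gave 0.49 ± 0.19, a mean above its SD, though still no call. The mean of 0.40 ranked 15 of 16406 measurable liver genes, whose lower and upper quartiles were -0.04 and 0.07. That rank rests on replicate 1, and Igfbp1 was singled out with this ratio known, so it is no support for a difference. The hepatocyte markers in liver also differed between the arrays, with list medians of 0.40 on replicate 1 and -0.43 on replicate 2.

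Of the 10 members, all measurable in both organs, 0 were called in liver, where 0.329% of all measurable genes were called in either direction, 0.0122% higher and 0.317% lower. In spleen 1 of 10 was called, Igfbp1, where 0.441% of measurable genes were called, 0.215% higher and 0.226% lower. Nothing is read from these counts, since Igfbp1 was singled out on the same ratios. Set against the median of the other 9 members on the same array, Igfbp1 was higher by 0.65 and 0.05 in liver (0.35 ± 0.42) and by 1.97 and 2.16 in spleen (2.07 ± 0.13). The means of the other 9 ran from -0.02 (Igfbp4) to 0.10 (Ghr) in liver and from -0.18 (Igfbp5) to 0.07 (Igf1) in spleen. Their median was 0.05 in liver, against 0.01 over all measurable genes there, and -0.07 in spleen, against 0.00.

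**Figure D1:**
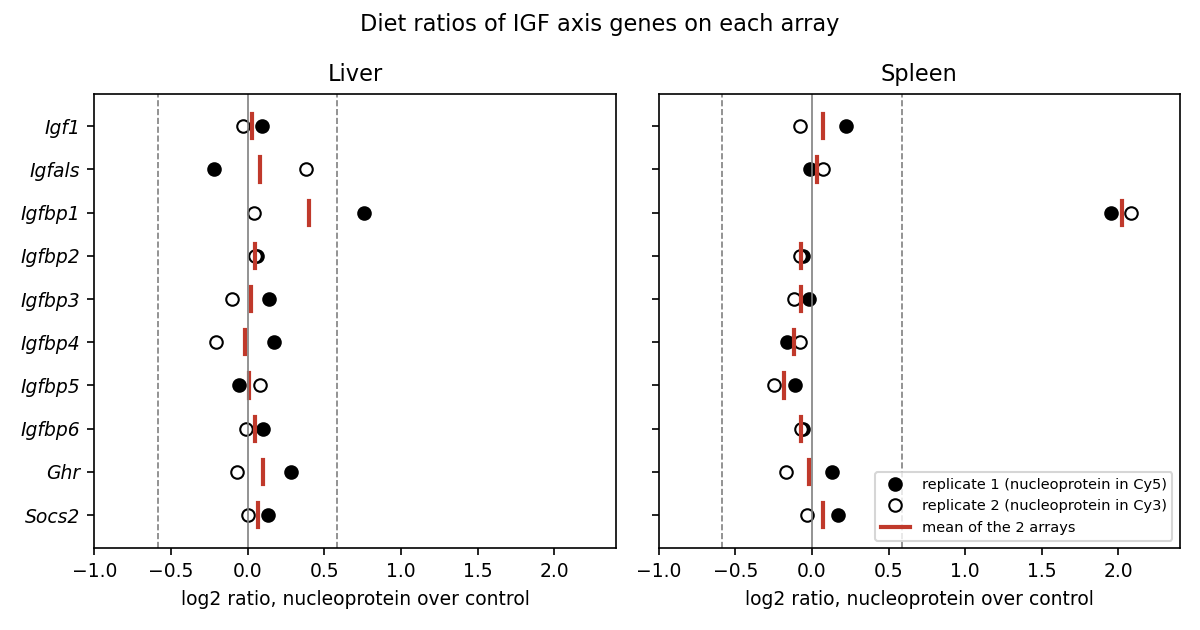
Diet log2 ratios (nucleoprotein over control, horizontal axis) of the 10 genes on each array of liver (left) and spleen (right). Filled points are replicate 1, open points replicate 2, red bars their mean, and dashed lines mark 1.5-fold. Igfbp1 in spleen lies at 1.95 and 2.08, and in liver it is split between 0.76 and 0.04, while the other genes lie between -0.25 and 0.38.

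Igf1, the growth factor itself, had a ratio of 0.09 and -0.03 in liver and 0.22 and -0.08 in spleen. Its liver level was 13.90 and 13.90 in the nucleoprotein pool, against 13.81 and 13.94 in the control pool. In spleen it was 9.59 and 9.44 in the nucleoprotein pool, against 9.37 and 9.51 in the control pool. The diets overlapped in spleen and in liver, and the sign of the ratio turned with the dye in both organs. Another Igf1 probe is printed on the array 10 times and gave the tightest values, 0.03 and 0.05 in liver and 0.05 and 0.01 in spleen, with an SD over spots between 0.03 and 0.09 per array. By that probe the Igf1 signal of the diets differed by under 0.06 log2 units on every array.

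Igfals, the acid-labile subunit that holds IGF1 and a binding protein together in plasma, had -0.22 and 0.38 in liver, a mean of 0.08 ± 0.42. In spleen its ratio was -0.01 and 0.07, at levels of 6.36 and 6.27 in the nucleoprotein pool and 6.37 and 6.20 in the control pool. Those levels lie near the lowest that the added offset allows (5.64), and the probe was well above background on only 1 of the 2 arrays in the nucleoprotein channel. The opposite signs in liver leave Igfals with no direction.

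Igfbp2, a binding protein that liver also secretes, had the closest pair of liver values, 0.06 and 0.05, and was at -0.06 and -0.08 in spleen. Its liver level was 13.01 and 13.28 in the nucleoprotein pool, against 12.95 and 13.23 in the control pool. In spleen it was 7.34 and 7.26 in the nucleoprotein pool, against 7.40 and 7.35 in the control pool. The signs thus held on both arrays of each organ and were opposite between organs, at sizes below the median SD of either organ.

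The remaining binding proteins were not called in either organ. Igfbp3, the main carrier of IGF1 in plasma, had 0.14 and -0.10 in liver and -0.02 and -0.12 in spleen. Igfbp4, which binds IGFs until the protease PAPP-A cleaves it, had 0.17 and -0.21 in liver and -0.16 and -0.08 in spleen. Igfbp5, which also attaches to extracellular matrix, had -0.06 and 0.08 in liver and -0.11 and -0.25 in spleen, the lowest spleen mean of the group at -0.18 ± 0.10. Igfbp6, which prefers IGF2, had 0.10 and -0.01 in liver and -0.06 and -0.07 in spleen. Of the 9 genes other than Igfbp1, 1 had the same sign on both arrays in liver, Igfbp2. In spleen 5 did, Igfbp2 to Igfbp6, all of them below 0 by small amounts. How many of all measurable genes kept their sign was not worked out, so nothing is read from these counts.

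The receptor and its inhibitor did not follow Igfbp1. Ghr, the growth hormone receptor, had 0.28 and -0.07 in liver and 0.13 and -0.17 in spleen. Its liver level was 13.51 and 13.33 in the nucleoprotein pool, against 13.23 and 13.41 in the control pool. Socs2, a STAT5 target that limits growth hormone receptor signalling, had 0.13 and 0.00 in liver and 0.17 and -0.03 in spleen. Its spleen level was 11.63 and 11.37 in the nucleoprotein pool, against 11.47 and 11.40 in the control pool. For both genes the mean ratio was smaller than its SD in each organ.

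The organs differed far more than the diets, and the members fell into those brighter in liver, Socs2 in between, and those brighter in spleen. The organs were on separate arrays, so these level differences, liver minus spleen, rest on scaling between arrays. Igfbp1 had the widest, 7.65 log2 units over both diets, which was 6.84 between the nucleoprotein pools and 8.46 between the control pools. In order over pools, its level averaged 15.63 ± 0.12 in the liver nucleoprotein pool, 15.23 ± 0.38 in the liver control pool, 8.79 ± 0.18 in the spleen nucleoprotein pool and 6.77 ± 0.27 in the spleen control pool. The 2 liver pools, neighbours in that order, differed by about the spread of their arrays, and the other steps were larger than it.

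Igfbp2 was brighter in liver by 5.78, Ghr by 5.61, Igf1 by 4.41, Igfbp4 by 3.66 and Igfals by 3.29, so that with Igfbp1 6 members were at least 8-fold brighter there. Socs2 was brighter by 1.84. Igfals, dim in spleen, was at 2.88 without scaling between arrays. With processed signals scaled to the 75th percentile it was at 6.06 and Igf1 at 4.97. The place of Igfals in this order and in the 8-fold count thus depends on the scaling. Brighter in spleen, by the representing probe, were Igfbp6 at -0.78, Igfbp5 at -1.24 and Igfbp3 at -1.69. Igfbp3 had liver levels of 8.27 and 8.17 in the nucleoprotein pool and 8.13 and 8.27 in the control pool. Its spleen levels were 9.85 and 9.88 in the nucleoprotein pool and 9.87 and 10.00 in the control pool. For these 9 genes the 4 liver channels and the 4 spleen channels of the representing probe did not overlap, whatever the diet. Within liver the diets' channels overlapped for all 9 genes. Within spleen they overlapped for all but Igfbp2, Igfbp4 and Igfbp5. Those were dimmer in the nucleoprotein pool by small mean ratios of -0.07 ± 0.01, -0.12 ± 0.06 and -0.18 ± 0.10, in that order. The share of all measurable genes whose diets did not overlap was not worked out, so nothing is read from these counts. In the RefSeq gene order of GRCm38.p6, Igfbp1 and Igfbp3 are next to each other on chromosome 11, as are Igfbp2 and Igfbp5 on chromosome 1. By the representing probes, the first of each neighbour pair was brighter in liver and the second in spleen. This depended on the probe, since the other Igfbp3 probe gave 0.35 and the other Igfbp5 probe 0.07.

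**Figure D2:**
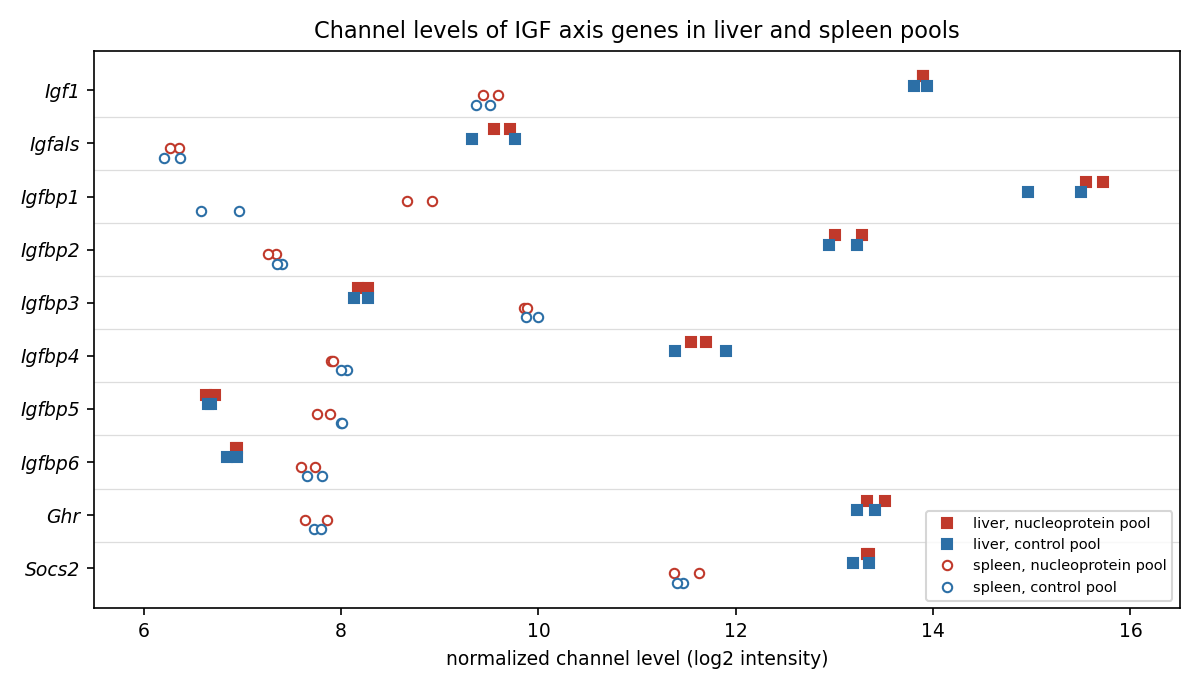
Normalized channel levels (log2 intensity, horizontal axis) of the 10 genes, with a point for each array: red for nucleoprotein and blue for control, filled squares for liver and open circles for spleen. Levels of different genes come from different probes and are not comparable. In spleen, Igfbp1 shows the diets furthest apart, at 8.92 and 8.67 in the nucleoprotein pool and 6.96 and 6.58 in the control pool.

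Several genes had more than 1 probe, 6 of the 10 with 16 probes between them, and the brightest probe stood for its gene. The diet ratios of all 19 probes other than that of Igfbp1 lay between -0.27 and 0.38 on every array, so no choice of probe gave another call. The organ difference varied among the probes of most of these genes. For Socs2 the values were 1.84 and 0.90, and for Igf1 they were 4.41, 3.96 and 3.16, the 3.16 from a probe not well above background in spleen. The brighter Igfbp3 probe gave -1.69 and the other, whose 60 bases span 1010 genomic bases and so cross a splice junction, gave 0.35. For Igfbp5 the values were -1.24 and 0.07, the 0.07 from a probe well above background on 1 array of each pool. For Ghr, 3 probes gave 5.61, 6.78 and 5.93, the last of them spanning 7453 genomic bases, and another gave 1.53. The remaining Ghr probe, at 0.46, was not well above background on any spleen array, so its value is not a measured organ difference.

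**Figure D3:**
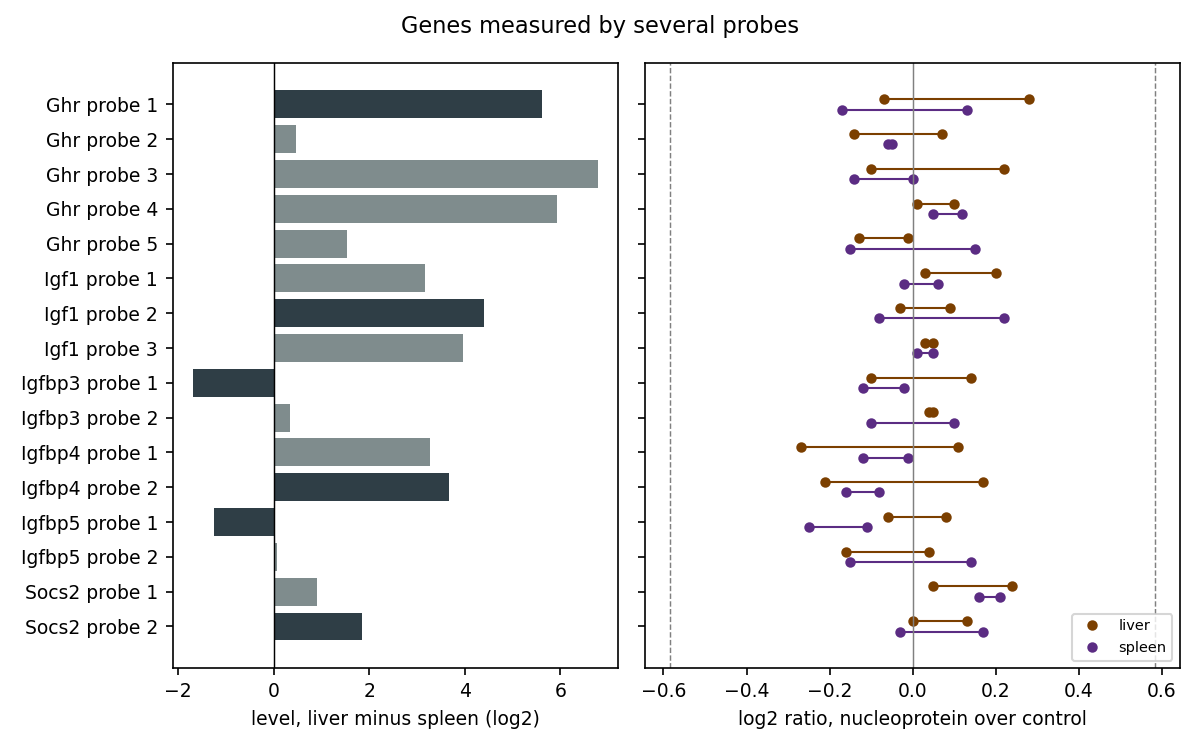
The 16 probes of the 6 genes with several probes, in order of position: the level difference of liver minus spleen (left, log2, darker bars for the probe that represents the gene) and the diet log2 ratio on both arrays of each organ (right, points joined by a line, dashed lines at 1.5-fold). Every diet ratio lies within the dashed lines, while the organ difference varies between 1.53 and 6.78 among the Ghr probes well above background in both organs. Ghr probe 2 and Igf1 probe 1 were not well above background in spleen.

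Hepatocyte markers, transcripts that mark the main cell of the liver, were brighter in the spleen nucleoprotein pool, as Igfbp1 was, but by widely differing amounts. The spleen ratio was above 0 for all 20 measurable markers and ranged over 0.06 to 2.21. The list median was 1.03 (replicate 1 at 1.00 and replicate 2 at 1.04). Of the 20 markers 12 were called higher, against 0.215% of all measurable spleen genes. The albumin gene Alb was at 1.94 ± 0.24, and the fibrinogen chains Fgb and Fgg were at 1.88 ± 0.03 and 2.21 ± 0.40. These were the highest of the list and close to Igfbp1 at 2.02 ± 0.09, which lay above the list median. Trf, transferrin, among the brightest of the list in spleen, was at 0.09 ± 0.10. The summed marker level in spleen was 12.87 and 12.78 (log2) in the nucleoprotein pool, against 11.73 and 11.59 in the control pool. All 20 markers were well above background in the nucleoprotein pool, and 14 of them in the control pool. Since 1 diet was enough to be measurable, the rest entered only through the pool where they were brighter. Their direction is therefore not independent of that filter. In liver the markers had a median ratio of -0.02, with 0 of 21 called, and a summed level of 19.80 and 19.41 in the nucleoprotein pool, against 19.37 and 19.86 in the control pool. Their part in the Igfbp1 result was not tested, and in RNA of whole organs more cells of a type and more RNA per cell cannot be told apart. Nor do the arrays tell which cells or tissue the marker and Igfbp1 transcripts in the spleen pools came from.

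The spleen ratio was also set against how much brighter a gene was in liver. This organ difference averages both spleen pools, so it is not independent of the spleen ratio, and a higher ratio by itself lowers it. Of 119 measurable spleen genes at least 7 log2 units brighter in liver, Igfbp1 among them, 26 were called higher in spleen (21.8%), with a median ratio of 0.28. Measurable genes include those well above background in the nucleoprotein pool alone. Over all spleen genes 39 were called higher, and 32 when both diets had to be measurable. Between 5 and 7 units, where Igfbp2 and Ghr lie, 8 of 177 were called higher (4.52%) and the median was 0.03. Between 3 and 5 units, where Igf1, Igfbp4 and, by the scaling used here, Igfals lie, 0 of 352 were called higher and the median was -0.02. The member with the widest organ difference was the one called, and the other 5 members brighter in liver by at least 8-fold had spleen ratios between -0.12 and 0.07. Whether the organ difference had a part in the Igfbp1 call was not tested.

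Expressed as a share of the gene's own liver intensity, the gain in spleen (nucleoprotein minus control intensity) was 0.810% and 0.703% for Igfbp1, a mean of 0.757%. The same share ran from 0.0224% to 1.56% over the 20 hepatocyte markers, with a median of 0.220%. Igfbp1 lay inside that wide range, as did the means of Igf1 and Igfals, so lying inside it does not set Igfbp1 apart. Alb was at 1.44%, Fgb at 1.14% and Fgg at 1.56%. Among members the mean share was 0.242% for Igf1 and 0.209% for Igfals, with opposite signs on the 2 arrays of each. It was -0.0240% for Ghr, also with opposite signs, and it was below 0 on both arrays for Igfbp2 at -0.0919% and Igfbp4 at -0.663%. Igfbp2 thus had no gain on either array, at -0.0805% and -0.103%.

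**Figure D4:**
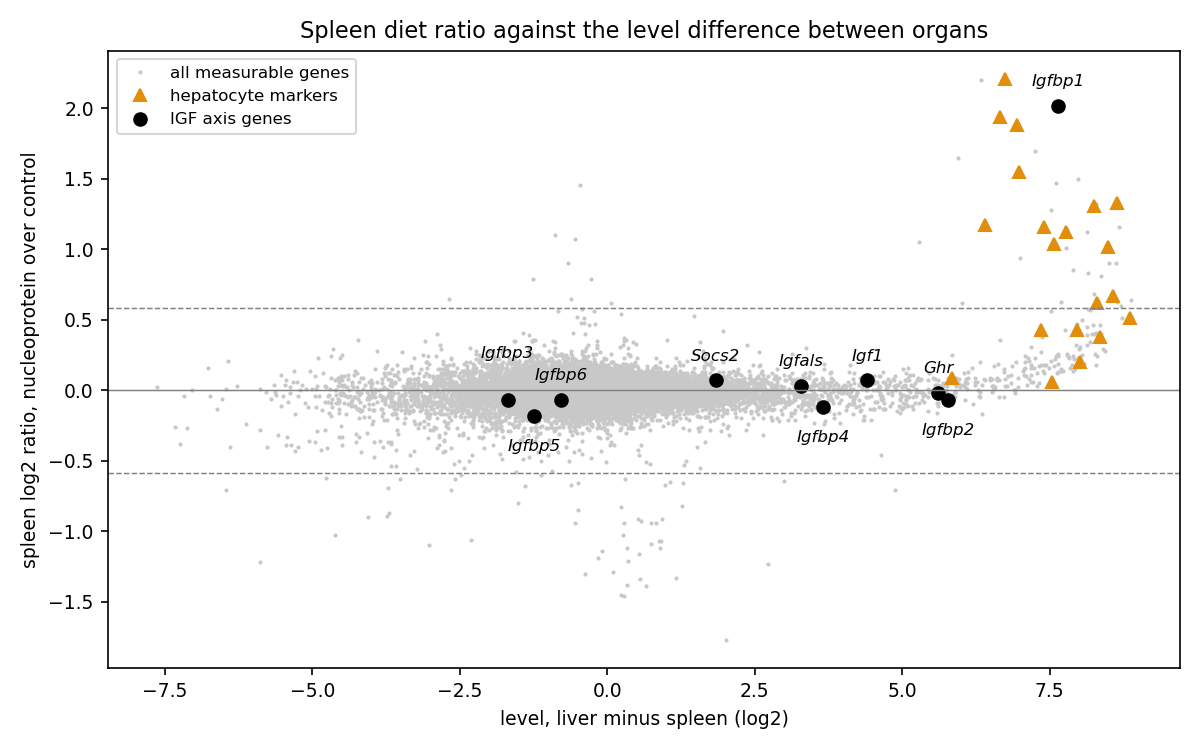
Spleen diet log2 ratio (vertical axis) against the level difference of liver minus spleen (horizontal axis, log2) for all measurable spleen genes (grey), hepatocyte markers (orange triangles) and the 10 IGF axis genes (black, named), with dashed lines at 1.5-fold. Igfbp1, at 7.65 and 2.02, lies above the hepatocyte markers of like organ difference, such as Ambp at 7.41 and 1.16 and Rbp4 at 7.77 and 1.12. The markers with ratios near 2 are at smaller organ differences, between 6.66 and 6.94, and the other 9 genes lie near 0. The organ difference averages both spleen pools, so a higher spleen ratio by itself lowers it. For Igfbp1 it is 8.46 between the control pools.

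The genes whose pattern over the 8 channel levels was closest to that of Igfbp1 were sought among 15316 genes measurable in both organs, by the root mean square distance after each gene was centred on its own mean. Since organ and diet shape all 8 channels, this is a description of 4 arrays. The nearest were the liver carboxylesterase gene Ces1c at 0.32 log2 units, the major urinary protein gene Mup3 at 0.33, an unannotated transcript NAP112201-1 at 0.35, Ambp at 0.36 and Rbp4 at 0.39. Ambp encodes a plasma protein precursor and Rbp4 the plasma retinol carrier, and both are in the hepatocyte list. Mup3 belongs to a family of near-identical genes, so its probe may read several of them. Their spleen ratios were 1.47 ± 0.29 for Ces1c, 1.70 ± 0.13 for Mup3, 1.28 ± 0.06 for NAP112201-1, 1.16 ± 0.03 for Ambp and 1.12 ± 0.14 for Rbp4, all below that of Igfbp1. Of the other members Igfbp2 was nearest at 1.21, which ranked 201, then Ghr at 1.26, which ranked 216, and Igf1 at 1.77, which ranked 354.

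**Figure D5:**
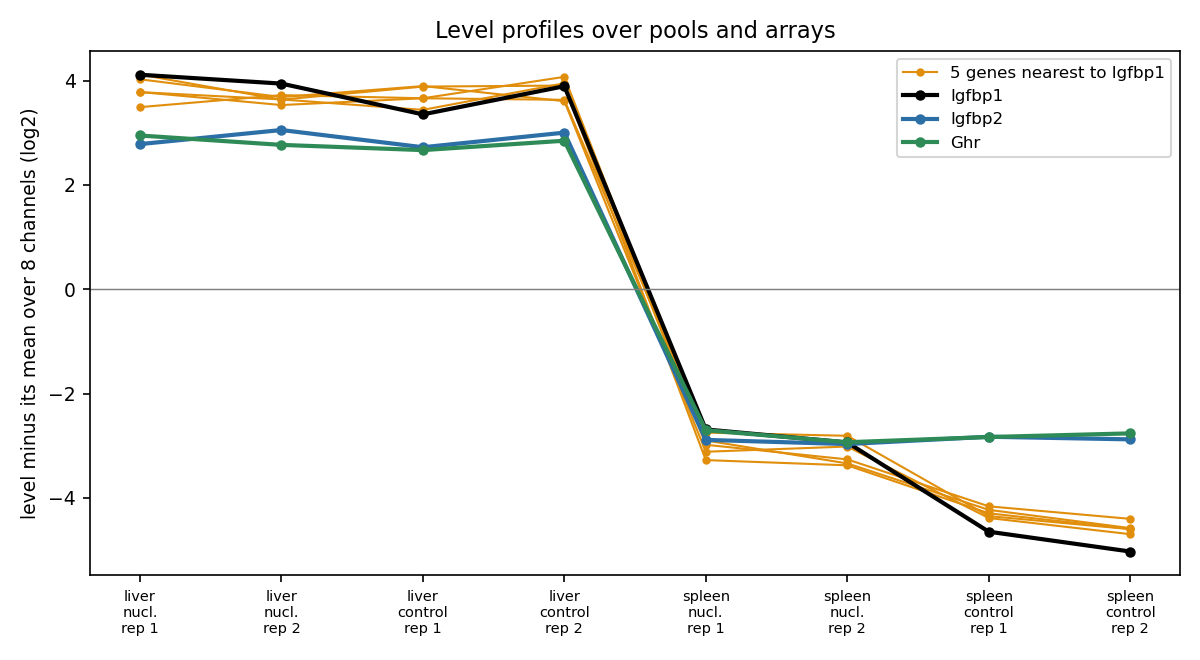
Channel levels (log2) minus each gene's mean over its 8 channels, by organ, diet and replicate, for Igfbp1 (black), the 5 nearest genes (orange), Igfbp2 (blue) and Ghr (green). Igfbp1 and the 5 nearest genes are lower in the spleen control pool than in the spleen nucleoprotein pool, while Igfbp2 and Ghr are level across the spleen pools.

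The other genes of the pathway were given by lists, drawn up with earlier results of these data known. Over all measurable genes 0.329% were called in liver and 0.441% in spleen. Lists of this size would hold few or no calls at those shares, so nothing is read from a count of 0 in a list. Of ligands, receptors and proteases of the IGF system, 0 of 10 measurable genes were called in liver (median 0.05) and 0 of 13 in spleen (median 0.00). The insulin receptor Insr, bright in liver, had 0.37 and -0.23 there, and Igfbp7, a secreted protein related to the binding proteins, had -0.09 and 0.14 in liver and 0.00 and -0.34 in spleen. Adamts1, a secreted metalloprotease, had -0.02 and 0.29 in liver and -0.08 and 0.11 in spleen, and the secreted protease Htra1 had -0.10 and 0.14 in spleen.

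Of growth hormone, JAK2 and STAT5 signalling genes, 0 of 18 were called in liver (median 0.02, range -0.42 to 0.31) and 0 of 16 in spleen (median 0.02, range -0.09 to 0.20). Socs3, the cytokine-induced inhibitor, was among the brightest of the list in both organs and had -0.07 and 0.29 in liver and 0.22 and 0.19 in spleen. Its relative Socs1 had -0.16 and 0.21 in liver and 0.12 and -0.09 in spleen. Stat3, the transcription factor of interleukin 6 signalling, had -0.37 and 0.20 in liver.

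Insulin receptor to FOXO signalling, the route by which insulin represses Igfbp1, had 0 of 20 called in liver (median 0.04) and 0 of 19 in spleen (median -0.04). Foxo1, a factor of that route, had -0.19 and 0.01 in spleen, and the kinase gene Akt1 had -0.01 and 0.02. These are transcript levels, and the route works largely through phosphorylation, which arrays do not read.

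Among insulin-repressed liver genes, 1 of 10 was called higher in liver and 0 of 10 in spleen. The called gene was Pdk4, a kinase that shuts off pyruvate dehydrogenase in fasting, at 0.92 and 1.30 in liver (1.11 ± 0.27) and 0.22 and 0.29 in spleen. After median centring in place of loess it was no longer called in liver. Pck1 and G6pc, the gluconeogenic enzymes, are in this list. In spleen Pck1 was at 0.47 and 0.68 and was not called, though it was called by Feature Extraction's own ratio, and its spot was left out on 1 liver array. G6pc had 0.22 and -0.03 in liver and 0.07 and 0.10 in spleen. Tat, tyrosine aminotransferase, had 0.60 and -0.53 in liver, opposite signs on the 2 arrays, and 0.51 and 0.35 in spleen. Angptl4, a fasting-induced lipase inhibitor, had -0.12 and -0.13 in liver and -0.06 and -0.04 in spleen, and Cpt1a, the carnitine transferase of fatty acid oxidation, had 0.50 and -0.47 in liver. The list as a whole did not follow Igfbp1, with a median of 0.03 in liver and 0.04 in spleen.

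Because Igfbp1 is known for an insulin response element in its promoter, bound by FOXO factors in human IGFBP1, the 250 bases before its RefSeq start are shown (GRCm38.p6, chr11:7197537-7197786, + strand), with the element's letters in capitals.
Igfbp1 promoter: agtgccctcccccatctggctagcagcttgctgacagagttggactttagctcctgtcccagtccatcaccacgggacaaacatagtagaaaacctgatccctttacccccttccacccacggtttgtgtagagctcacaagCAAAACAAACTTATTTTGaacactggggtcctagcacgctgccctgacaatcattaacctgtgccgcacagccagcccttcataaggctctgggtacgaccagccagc
The capitals, 108 to 91 bases before the start, hold CAAAACA and TATTTTG, the letters of 2 short elements that face each other. Searched on both strands in the same 250 bases of 32851 promoters, CAAAACA was found in 5.56% and TATTTTG in 3.95%. The joint form CAAAACANNNNTATTTTG, which contains both of the others and whose spacing was read from this promoter, was found in 1 promoter, 0.00304%. Of 13 promoters of 9 members in that table, only that of Igfbp1 held any of the 3. Its match was fixed in advance, since the letters searched were those of its own element. At the shares above few matches would be found among 13 promoters, so nothing is read from their absence in the other members. Socs2 had no entry. A match is a description of letters and was not tied to the ratios above.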

How the data were processed

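The members and gene lists were chosen with earlier results of these data known. Per the file headers, the deposited Agilent Feature Extraction files hold for each spot the mean and background intensity of both channels, processed intensities, and the log10 ratio of the processed channels, red over green. Version 9.5.3.1 is given in the submitters' processing notes. The deposited series table, recorded as a score, held red over green as a linear ratio (within 0.02 log2 units for 99.85% to 100% of spots well above background), with a minus sign on every replicate 1 value for an unknown reason and column medians of -0.93, 0.93, -0.96 and 0.97, so it was not centred.

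Mean and background intensities of 43379 gene spots per array were corrected with normexp (offset 50) and normalized by loess with 1639 control spots at weight 0 (limma 3.58.1, R 4.3.3). Between 189 and 354 flagged gene spots per array were left out; 0 were saturated. Signs were turned so that nucleoprotein is over control. Channel levels followed Aquantile scaling; the offset of 50 pulls low values together. Spots of a probe were averaged and the brightest probe stood for a gene. By accession 22951 probes were named, by name or synonym 9768 (RefSeq, GRCm38.p6), and 8455 kept the file's name. Names printed are all members, other list genes called in either organ or among the 3 brightest of a list in an organ, and the 5 nearest to Igfbp1; Pck1 and G6pc were added after their values were seen. A gene that this rule names is not reported here. The ratio and call steps were tested on simulated data. The 4 arrays limit precision. The arrays were on 1 slide. Alternatives were other background corrections, median centring, the deposited ratios, all probes, a stricter detection rule, a 2-fold bound and single arrays.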

Additional observations from a re-analysis of the deposited data

Results flagged for a closer look

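Igfbp2 had opposite signs in the 2 organs on every array. Its diet log2 ratio was 0.06 and 0.05 in liver and -0.06 and -0.08 in spleen, so the difference, liver minus spleen, was 0.13. This difference was not tested, each organ had 1 pool per diet, and the size equals the median SD of the 2 liver arrays (0.13).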

How the results depend on the processing

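No paired analysis was possible because each organ held 1 pool per diet and no test was run; replicate numbers mark the dye orientation. Igfbp1 was the 1 member called in spleen under all 9 alternatives. Its spleen ratio, 2.02, was 2.47 at an offset of 10 and 2.78 by Feature Extraction's ratio and by the authors' deposited table. Igfbp1 minus the median of the other members in spleen, 2.07, was 2.52 at an offset of 10, 2.82 by Feature Extraction's ratio and 2.83 by the deposited table. These settings add less or no offset to dim spots. In liver its ratio, 0.40 ± 0.50, ranged from 0.04 to 0.76 over single arrays. It was 0.49 ± 0.19 by Feature Extraction's ratio and by the deposited table, and 0.83 ± 3.13 with median centring. The members called in liver, 0, ranged from 0 to 1 over single arrays (Igfbp1, without replicate 2). The Igfbp1 level difference of 7.65 was 9.05 with processed signals scaled to the 75th percentile.

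Pathway genes called in liver, 1 (Pdk4), were 0 with median centring and 1 to 2 over single arrays (Tat added without replicate 2). Those called in spleen, 0, were 1 (Pck1) at an offset of 10, by Feature Extraction's ratio and by the deposited table, and 0 to 1 over single arrays (Pck1 without replicate 1). Genes called higher and lower in liver, 2 and 52, were 0 and 32 with median centring, 28 and 106 by Feature Extraction's ratio, 28 and 106 by the deposited table, 0 higher at 2-fold, and 30 to 196 and 96 to 258 over single arrays. In spleen, 39 and 41 were 66 higher at an offset of 10, 30 and 10 with median centring, 102 and 81 by Feature Extraction's ratio, 102 and 79 by the deposited table, and 21 and 18 at 2-fold; over single arrays they ranged over 52 to 58 and 57 to 88. The causes were not tested. With median centring the median ratio over all liver genes was 0.17, against 0.01 with loess. Of 161 other values of member ratios, 141 moved by less than 1 SD of the arrays, and they ranged from -0.25 to 0.49. Of 36 values of the other members' level differences, 6 did. Part of the 141 was fixed in advance. A single array always lies within 1 SD of the mean of 2 arrays, and the stricter detection rule does not alter a ratio. Averaging all probes alters nothing for genes with 1 probe. None of the values that were called changed sign.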
